A study of Homo sapiens with 5 samples.

Results

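EPCAM, CD24, the membrane serine proteases ST14, PRSS8 and TMPRSS4, their inhibitors SPINT1 and SPINT2, the transcription factor ELF3 and the small GTPase RAB25 are genes of the epithelial cell surface and its upkeep. These 9 genes were chosen by name, with earlier results of these data known. All transcripts that GENCODE v44 assigns to each were summed, out of 61220 genes in the tables. They were followed in 5 long-read cDNA libraries made from the RNA of NCI-H1975 and HCC827, established human lines derived from lung adenocarcinoma. The HCC827 share of the RNA mass was 0, 25, 50, 75 or 100%, and libraries are named with the NCI-H1975 share first, so that 100:0 held NCI-H1975 alone, 0:100 held HCC827 alone, and values are given in that direction. The NCI-H1975 RNA was labelled as carrying the synthetic spike-in transcripts sequins mixA and the HCC827 RNA sequins mixB. Both lines were grown separately in RPMI medium with fetal calf serum and penicillin-streptomycin, with no drug treatment named, and 1 RNA per line supplied all mixtures.

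Serine proteases of the pericellular space cut surface proteins, growth factor precursors and ion channels. Matriptase, the product of ST14, is a type II transmembrane protease, and prostasin, the product of PRSS8, is held by a GPI anchor and acts with matriptase in a common cascade. Both are held in check by the Kunitz-type inhibitors HAI-1 (SPINT1) and HAI-2 (SPINT2), which are themselves membrane proteins. EPCAM is an adhesion protein of simple epithelia that associates with claudin-7 and is itself cut by matriptase, and CD24 is a small, heavily glycosylated GPI-anchored protein. ELF3 is an ETS-family factor found mainly in epithelia, and RAB25 is an epithelial member of the Rab11 group that returns cargo from recycling endosomes to the surface.

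The libraries held from 2932250 to 4058751 reads, so that 1 read was worth 0.246 to 0.341 CPM (reads in 1000000 of the library). Epithelial markers matched the label of both lines: 6 keratin, cadherin and claudin genes summed to 5493 CPM in the 100:0 library and 16030 CPM in the 0:100 library, scaled as described next. The lung adenocarcinoma markers NAPSA, NKX2-1 and SFTPB summed to 43.6 and 372 CPM. The leukocyte markers PTPRC, CD3E and LYZ had 0 reads in every library, and 3 endothelial markers summed to at most 1.40 CPM. Of 5 fibroblast markers, COL1A1 and COL1A2 carried nearly all reads, and the sum was 186 CPM in the 100:0 and 7.06 CPM in the 0:100 library, with DCN at 0 reads. The mean length of the assigned transcripts went from 2579 to 2180 bases and the mitochondrial share from 5.64% to 8.85%; the part of these trends in the values below was not tested, apart from a fit with the length trend removed. The library labelled as pure HCC827 with sequins mixB had 0 sequin reads, which allows up to 0.97 CPM, against 5475, 4678, 2830 and 1269 in the others in mixture order. All 7 slopes reported below as rising passed the threshold without that library too. The inner libraries hold the same HCC827 RNA, so that fit does not address the missing sequin reads, whose cause was not tested.

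Levels are given as CPM after TMM scaling, which assumes that most genes do not change between libraries. The TMM factors went from 1.158 in the 100:0 library to 0.87 in the 0:100 library, and the assumption was not tested. Slopes are fitted over all 5 libraries as a straight line in log2 against the HCC827 mass share. They give the fitted log2 change across the whole series, from no HCC827 RNA to HCC827 RNA alone. Because a mixture is linear in expression, the slope of a strongly changed gene can differ from the log2 ratio of the pure libraries. Slopes were tested by the edgeR quasi-likelihood test with p-values adjusted over 13492 genes, at a threshold of 0.05. All 9 genes passed the read filter, 7 had a rising slope past the threshold and 0 a falling one. Among all genes tested, 45.8% passed in either direction, 23.5% rose and 22.3% fell, so a call alone is common in this series. The median slope of the 9 was 1.49, and that of all genes tested was -0.035. As the 9 were chosen with earlier results known, setting them against all genes is a description and not a test. Scaling by library totals alone moved the median of all genes to -0.44 and the split of the 9 to 7 rising and 2 falling, the 2 being EPCAM and CD24. As each ratio was 1 library and each line 1 RNA, the p-values measure the scatter of libraries about the trend and not differences between cultures. Bulk RNA cannot tell fewer expressing cells from less RNA per cell.

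**Figure D1:**
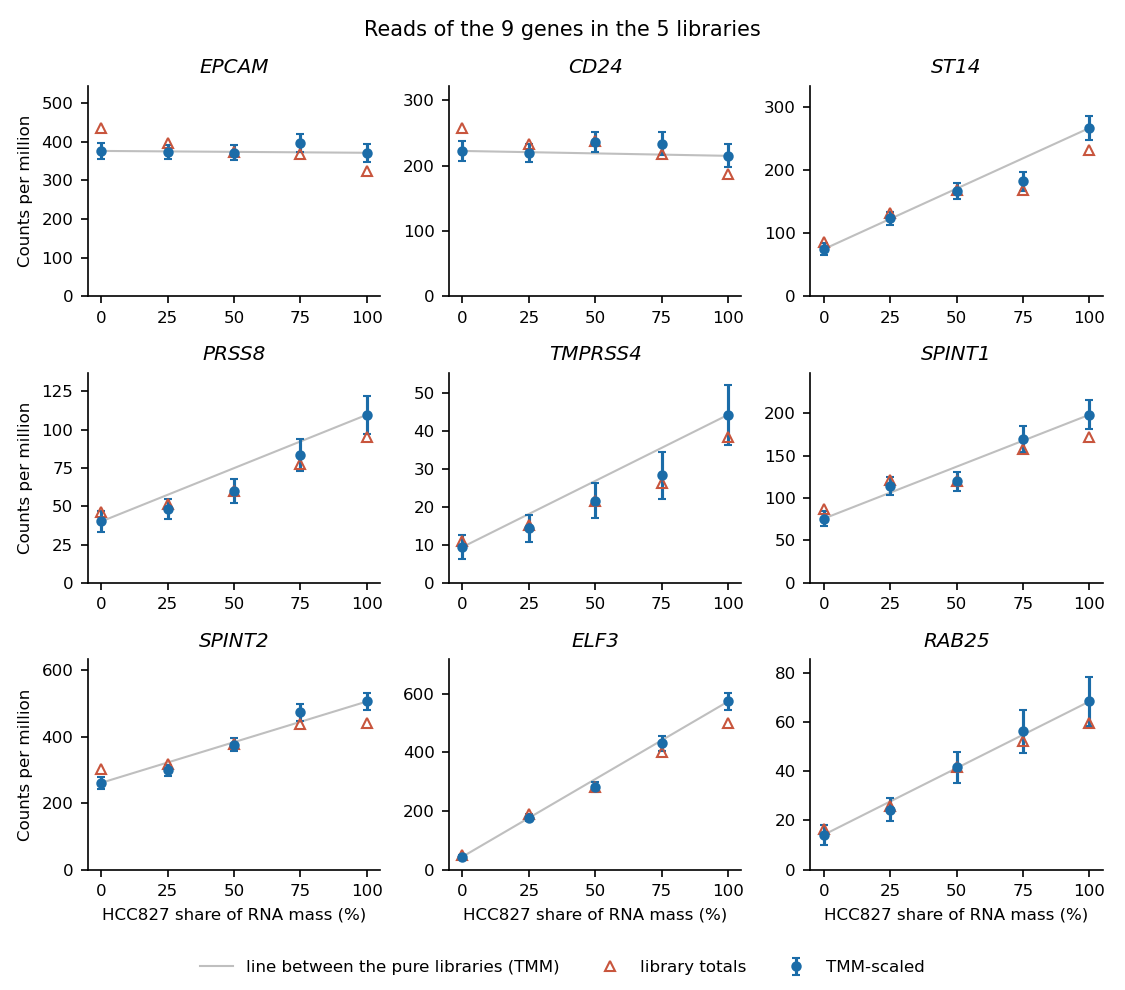
CPM of each of the 9 genes (vertical axis, linear from 0) against the HCC827 share of RNA mass (horizontal axis, %), 1 library per point. Filled points are TMM-scaled with 95% counting intervals, triangles are scaled by library totals, and the grey line joins the pure libraries. EPCAM stays between 371 and 397 CPM under TMM scaling, whereas ELF3 climbs from 43.9 to 573 CPM.

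The exon segments that separate the main isoforms of the inhibitor genes, both coding, are shown first because they decide which inhibitor protein a transcript encodes. SPINT1-201 carries a segment of 48 bases at the end of exon 5 (chr15:40853882-40853929, GRCh38, plus strand) that SPINT1-202 lacks, and its length keeps the reading frame. SPINT2-201 carries exon 2 of 171 bases (chr19:38283627-38283797, plus strand), which SPINT2-202 skips in frame and which encodes the first Kunitz domain. Capitals mark the segment, and the lower-case letters are the 12 bases on each side in the mature transcript. In the junction lines the same flanks are joined, as found in SPINT1-202 and SPINT2-202.
SPINT1-201: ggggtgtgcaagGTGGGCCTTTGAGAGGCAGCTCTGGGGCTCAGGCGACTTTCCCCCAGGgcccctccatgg
SPINT1-202 junction: ggggtgtgcaaggcccctccatgg
SPINT2-201: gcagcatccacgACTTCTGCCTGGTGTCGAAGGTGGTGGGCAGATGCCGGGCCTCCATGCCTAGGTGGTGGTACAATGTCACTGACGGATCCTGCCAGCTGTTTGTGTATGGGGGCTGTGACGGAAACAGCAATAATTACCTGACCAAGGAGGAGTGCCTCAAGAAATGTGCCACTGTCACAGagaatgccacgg
SPINT2-202 junction: gcagcatccacgagaatgccacgg

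EPCAM (ENSG00000119888.11, chromosome 2, 47345158 to 47387601, plus strand) had 1276, 1607, 1448, 1136 and 998 reads from the 100:0 to the 0:100 library. These were 376, 372, 372, 397 and 371 CPM, so the libraries lay close together with no order along the series. The ratio of the 0:100 to the 100:0 library was 0.987 (95% counting interval 0.908 to 1.07), and the slope was 0.024 ± 0.11 (SE, adjusted p = 0.882 by edgeR). Scaled by library totals, EPCAM instead fell in order from 435 to 323 CPM, for a slope of -0.38 (edgeR, adjusted p = 0.0119), close to the median slope of all genes on that scale.

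CD24 (ENSG00000272398.6, chromosome 6, 106969831 to 106975627, minus strand) had 755, 946, 922, 668 and 578 reads. Its levels were 222, 219, 237, 234 and 215 CPM, with the highest in the 50:50 library and the lowest in the 0:100 library. The pure libraries differed by a ratio of 0.966 (95% counting interval 0.866 to 1.08), and the slope was 0.00028 ± 0.12 (SE, adjusted p = 0.999 by edgeR). On library totals the slope was -0.41 (edgeR, adjusted p = 0.0125). The pseudogene copies CD24P1, CD24P2, CD24P4 and CD24P5 are similar enough to share reads and were all listed at 0, so the CD24 values include any reads of theirs that were assigned to it. Reads of EPCAM over those of CD24, a ratio that no scaling can move, were 1.69, 1.70, 1.57, 1.70 and 1.73, and their trend was not detected (two-sided exact permutation test, p = 0.75, adjusted p = 0.75 over 8 ratios).

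All 3 proteases rose along the series, and for each the 5 libraries ran in order of TMM-scaled CPM. ST14 (ENSG00000149418.11, chromosome 11, 130159782 to 130210362, plus strand) had 253, 533, 651, 521 and 718 reads, or 74.5, 124, 167, 182 and 267 CPM. The 0:100 library stood 3.58-fold above the 100:0 library (95% counting interval 3.10 to 4.15), and the slope was 1.67 ± 0.16 (SE, adjusted p = 7.11e-06 by edgeR). Every read of ST14 lay on 1 transcript, ST14-201.

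PRSS8 (ENSG00000052344.16, chromosome 16, 31131433 to 31135727, minus strand) had 136, 209, 233, 239 and 295 reads. In CPM these were 40.1, 48.4, 59.8, 83.5 and 110, a 2.74-fold ratio between the pure libraries (95% counting interval 2.23 to 3.38). Its slope was 1.49 ± 0.15 (SE, adjusted p = 8.92e-06 by edgeR). The antisense transcript ENSG00000261385 covers the 3' end of PRSS8 on the opposite strand and had 268 reads in all against 1112 of PRSS8, and whether counting used the strand is not given in the sources used here.

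TMPRSS4 (ENSG00000137648.19, chromosome 11, 118077012 to 118121890, plus strand) encodes another type II transmembrane protease and had the fewest reads of the 9 genes, with 32, 62, 84, 81 and 119. Its levels were 9.43, 14.4, 21.6, 28.3 and 44.2 CPM. The ratio between the pure libraries was 4.69, with a wide 95% counting interval of 3.15 to 7.17, and the slope was 2.16 ± 0.23 (SE, adjusted p = 1.59e-05 by edgeR).

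Both inhibitors rose as well, in order along the series, although by library totals the 50:50 library (120.1 CPM) lay just under the 75:25 library (121.5 CPM) for SPINT1. SPINT1 (ENSG00000166145.15, chromosome 15, 40844018 to 40858207, plus strand) had 257, 493, 466, 485 and 533 reads, or 75.7, 114, 120, 170 and 198 CPM. Its pure libraries stood 2.62-fold apart (95% counting interval 2.25 to 3.05), for a slope of 1.32 ± 0.14 (SE, adjusted p = 1.80e-05 by edgeR). SPINT1-AS1 overlaps its first exon on the opposite strand and had 169 reads against 2234.

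SPINT2 (ENSG00000167642.13, chromosome 19, 38244035 to 38292615, plus strand) had 886, 1291, 1463, 1352 and 1360 reads. The levels were 261, 299, 376, 473 and 506 CPM, a ratio of 1.94 (95% counting interval 1.78 to 2.11), and the slope of 1.03 ± 0.12 was the smallest of the 7 that rose (SE, adjusted p = 2.85e-05 by edgeR). By library totals alone its slope was 0.62, still past the threshold. Its annotated span also holds PPP1R14A on the opposite strand, which went from 1 to 124 reads, and overlaps ENSG00000267748 on the same strand, with 160 reads against 6352 of SPINT2. PPP1R14A lies upstream of the exons of the 4 SPINT2 transcripts that were tested. The antisense transcript ENSG00000286037 lies near the 3' end of SPINT2 on the opposite strand, with 62 reads in all.

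Because proteases and inhibitors rose together, their balance was followed as reads of one over reads of the other within each library, which does not depend on scaling. The 8 ratios were chosen after the values were seen. Since these ratios are not per length, only their change along the series is read. TMPRSS4 over SPINT2 was 0.0361, 0.0480, 0.0574, 0.0599 and 0.0875, rising in order, with 95% counting intervals of 0.0246 to 0.0514 and 0.0719 to 0.106 at the ends that do not overlap. ST14 over SPINT2 was 0.286 in the 100:0 library (0.247 to 0.329) and 0.528 in the 0:100 library (0.482 to 0.578), but the 25:75 library, at 0.385, lay below the 50:50 library, at 0.445. PRSS8 over SPINT2 went from 0.153 to 0.217, with 0.162, 0.159 and 0.177 between. Against SPINT1, ST14 went from 0.984 to 1.35, TMPRSS4 from 0.125 to 0.223 and PRSS8 from 0.529 to 0.553. Over the 8 ratios the raw p-values ran from 0.0167, the smallest that 120 orders of 5 libraries can give, to 0.75, and the smallest adjusted p was 0.133 (two-sided exact permutation tests, Benjamini-Hochberg). None of the 8 trends passed, and a single trend at the smallest possible p would not reach below 0.133 after adjustment. SPINT1 over SPINT2 went from 0.290 to 0.392.

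**Figure D2:**
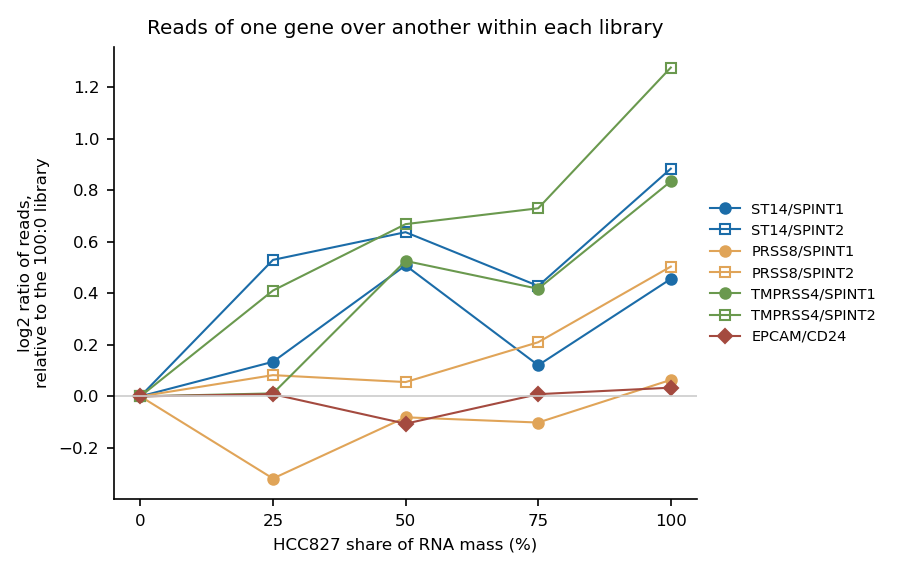
Log2 ratio of reads of one gene over another within each library, relative to the 100:0 library (vertical axis), against the HCC827 share of RNA mass (horizontal axis, %). Circles divide by SPINT1, open squares by SPINT2, and diamonds show EPCAM over CD24; TMPRSS4 over SPINT2 rises in every step while EPCAM over CD24 stays near 0.

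ELF3 (ENSG00000163435.16, chromosome 1, 202007945 to 202017183, plus strand) had the largest slope of the 9 genes. It had 149, 763, 1096, 1230 and 1541 reads, or 43.9, 177, 281, 430 and 573 CPM, each library above the one before it. The pure libraries stood 13.1-fold apart (95% counting interval 11.03 to 15.55), and the slope was 3.21 ± 0.36 (SE, adjusted p = 2.09e-05 by edgeR). The fitted ratio of 9.29 from that slope was smaller than the observed one. ELF3-AS1 overlaps the 5' end on the opposite strand with 100 reads in all, 14 in the 100:0 and 23 in the 0:100 library, against 4779 of ELF3.

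RAB25 (ENSG00000132698.15, chromosome 1, 156061160 to 156070504, plus strand) had 48, 105, 162, 161 and 184 reads. Its levels of 14.1, 24.3, 41.6, 56.3 and 68.4 CPM ran in order, 4.84-fold apart at the ends (95% counting interval 3.51 to 6.79). The slope was 2.19 ± 0.22 (SE, adjusted p = 1.21e-05 by edgeR). No other annotated gene overlaps RAB25, CD24 or ST14.

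**Figure D3:**
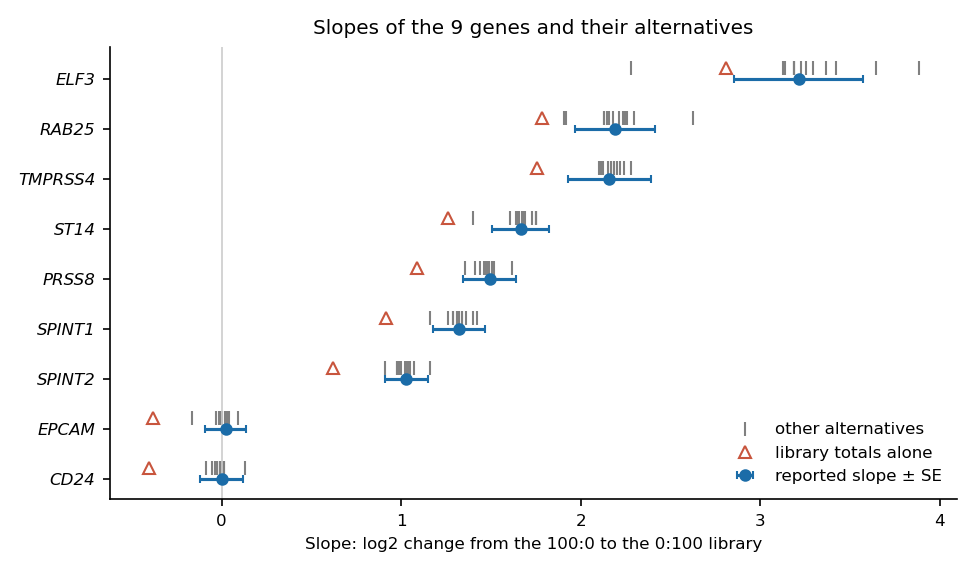
Slope of each of the 9 genes (horizontal axis, log2 change from the 100:0 to the 0:100 library), with genes in rows. Circles with bars are the reported slopes ± SE, triangles the slopes under library totals alone, and ticks the other alternatives. Slopes of the 7 rising genes keep their sign in every alternative, and those of EPCAM and CD24 lie on both sides of 0.

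In order of slope the genes were ELF3, RAB25, TMPRSS4, ST14, PRSS8, SPINT1, SPINT2, EPCAM and CD24. Neighbours from RAB25 to TMPRSS4, from ST14 to PRSS8, from PRSS8 to SPINT1 and from EPCAM to CD24 differed by less than the sum of their standard errors. The other 4 neighbouring pairs differed by more than that sum, and none of these differences was tested. At least 2-fold differences between the pure libraries were seen in 6 of the 9, all higher in the 0:100 library, where 16.3% of 13488 genes were that much higher and 34.6% differed that much in either direction. All 5 libraries ran in rising order in 7 of the 9 genes, against 14.9% of all genes tested. Because the 9 genes were chosen with earlier results of these data known, these shares of all genes do not test the set.

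The 6 genes at least 2-fold apart allowed the inner libraries to be placed between the pure ones, at 0% for the level of the 100:0 library and 100% for that of the 0:100 library. The mean position, weighted by counting precision, was 24.3% ± 1.247 (counting SE) in the 75:25 library, 43.6% ± 1.65 in the 50:50 library and 68.6% ± 2.33 in the 25:75 library. The 95% counting intervals were 21.9 to 26.8%, 40.3 to 46.8% and 64.0 to 73.2%. On this TMM scale the first holds the HCC827 mass share and the others lie below it. These intervals take the 6 genes to share 1 position and leave out the spread between genes. Single genes ran from 28.3 to 50.5% in the 50:50 library and from 54.2 to 77.6% in the 25:75 library. ELF3, which carries most of the weight, lay at 25.1%, 44.9% and 73.0%, and ST14 at 25.4%, 48.1% and 55.9%. PRSS8 and TMPRSS4 were lowest in the 75:25 library, at 11.99% ± 6.57 and 14.2% ± 6.86 (counting SE). Scaled by library totals, the mean positions were 29.7%, 50.4% and 73.1%. Estimated instead from the unscaled reads of all genes past a floor of 50 reads, the HCC827 share was 32.7%, 55.4% and 78.2%. Only the positions by library totals are on the same scale as that share. Their 95% counting intervals were 26.5 to 32.9%, 46.4 to 54.4% and 67.9 to 78.4%, of which the first and last hold it and the middle lies below it.

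At transcript level, 50 transcripts of the 9 genes had reads and 27 passed the read filter. Of these, 19 had a slope past the threshold (edgeR quasi-likelihood test over 31758 transcripts), all rising, where 33.6% of all transcripts passed in either direction and 17.5% rose. All tested transcripts of the 7 rising genes were called, and none of the 8 of EPCAM and CD24. Isoform usage within a gene was testable for 7 of the 9 genes, and 0 changed at an adjusted p under 0.05 (edgeR diffSpliceDGE, Simes), nor at an unadjusted p under 0.05, against 0.416% of 7456 genes called. By the gene-level F test 0 changed as well, with EPCAM at an unadjusted p of 0.036 (edgeR, adjusted p = 0.612).

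Of the EPCAM reads, 89.4% over all libraries lay on EPCAM-201, which starts at an exon of its own. EPCAM-202, a coding transcript from an upstream exon, took 4.94% in the 100:0 library (95% exact binomial interval 3.81 to 6.27) and 3.81% in the 0:100 library (2.71 to 5.19), with 2.64% in the 25:75 library. The annotated nonsense-mediated decay transcript held 3.85% over all libraries, and the retained-intron transcript EPCAM-206 went from 2.9% (2.05 to 3.97) to 1.80% (1.07 to 2.84). For both transcripts the intervals of the pure libraries overlap.

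For each inhibitor gene, reads were assigned in every library to transcripts of both protein forms. SPINT1-201, with the 48-base segment shown above, took 55.7% of the reads on it and SPINT1-202 in the 100:0 library (95% exact binomial interval 49.4 to 61.9) and 54.4% in the 0:100 library (50.0 to 58.7). The inner libraries lay at 50.3%, 53.7% and 56.8%. SPINT2-201, with the first Kunitz exon, took 50.4% of the reads on it and SPINT2-202 in the 100:0 library (45.9 to 54.9) and 53.3% in the 0:100 library (49.7 to 56.9). The retained-intron transcript SPINT2-203 held 24.0% of SPINT2 reads over all libraries, and a further coding transcript, with a shorter first exon and the same first Kunitz exon, 20.3%.

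ELF3 reads fell mainly on ELF3-203, ELF3-201 and ELF3-202, with 40.2%, 29.1% and 28.5% over all libraries, with slopes of 2.94, 3.06 and 3.03 (edgeR quasi-likelihood test, adjusted p from 1.01e-07 to 1.85e-06). RAB25-201 and RAB25-203, which skips coding exon 2 and has no annotated coding sequence, each had reads in every library, with RAB25-201 at 52.1%, 51.9%, 50.0%, 60.9% and 51.4% of the reads on both. Its share in the 25:75 library was the highest (95% exact binomial interval 52.9 to 68.5). CD24-201 and the longer coding transcript of CD24 divided the reads on both with CD24-201 at 50.7%, 48.7%, 49.5%, 53.3% and 50.6%. How reads that match several transcripts were divided is not given in the sources used here. The isoform shares, several of which lay near 50.0% of a pair, are therefore uncertain, as is the presence of both forms of a pair.

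**Figure D4:**
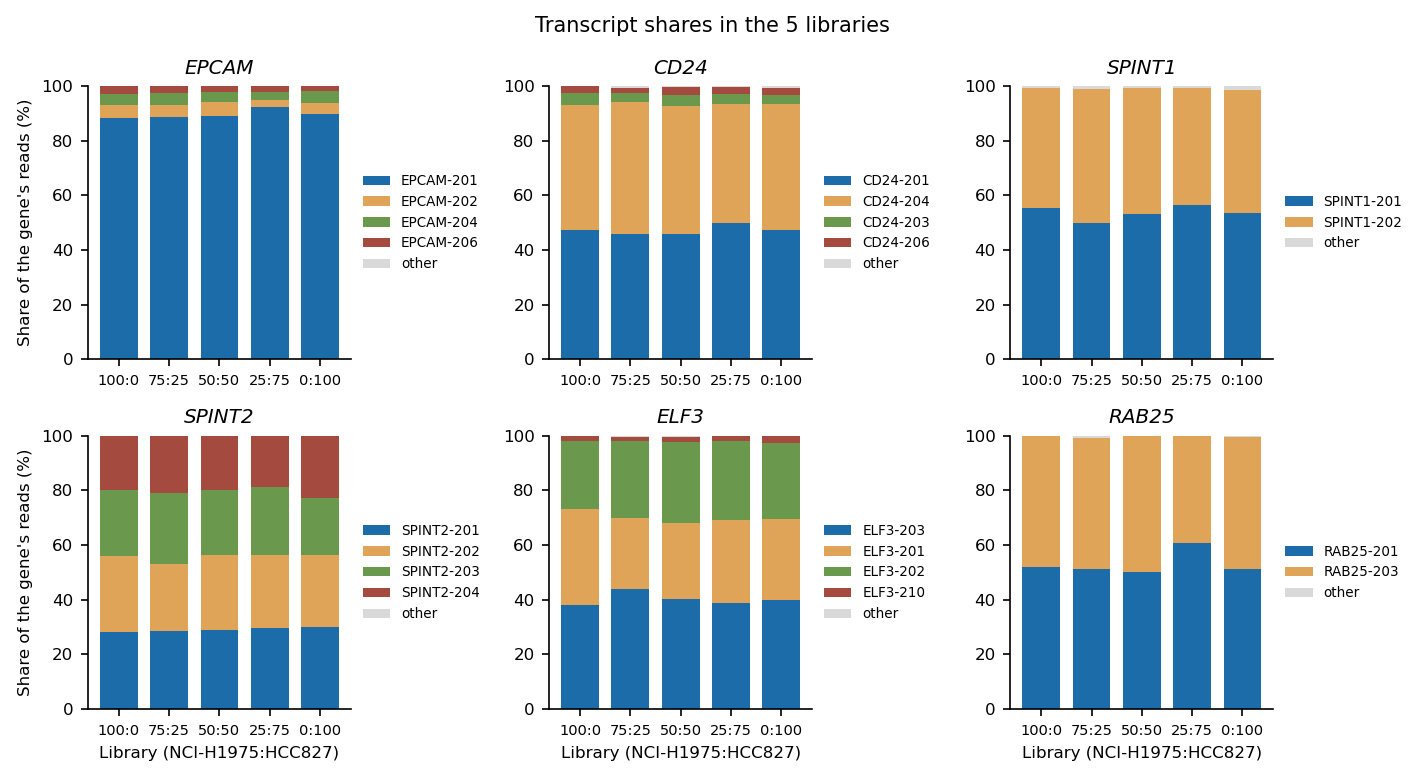
Share of each gene's reads (vertical axis, %) on its transcripts in the 5 libraries (horizontal axis, NCI-H1975 to HCC827 ratio), for 6 genes; colours are transcripts and grey is all transcripts below the read filter. EPCAM-201 holds most EPCAM reads in each library, and the bands of SPINT1 and SPINT2 keep similar heights.

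RefSeq promoter windows (GRCh38.p14) were matched for 4 of the 9 genes, and the 250 bases before the start were searched for CACCTG on both strands (CAGGTG), the E-box form bound by SNAI1 and ZEB1. Among 35116 windows of that length, 17.5% hold it. The RAB25 window (chr1:156060910-156061159, plus strand) holds 1 match, at 156061119 to 156061124, in capitals. The ELF3 window holds 1, shown with 10 bases on each side (chr1:202010457-202010482, plus strand), inside the first exon of ELF3-201. The CD24 window before the start of the annotated gene (chr6:106975628-106975877, minus strand) holds none and is shown as well. CD24 had no detected slope, and another of its windows (chr6:106974040-106974289) holds 1. SPINT1 rose, and its window reaching upstream of the gene (chr15:40843798-40844047) holds none, while a downstream SPINT1 window holds 1. The remaining CD24 window holds none. Matches and slopes were not tested against each other. A match is a description of the letters only, and the lack of one says only that these letters are not in the window.
RAB25: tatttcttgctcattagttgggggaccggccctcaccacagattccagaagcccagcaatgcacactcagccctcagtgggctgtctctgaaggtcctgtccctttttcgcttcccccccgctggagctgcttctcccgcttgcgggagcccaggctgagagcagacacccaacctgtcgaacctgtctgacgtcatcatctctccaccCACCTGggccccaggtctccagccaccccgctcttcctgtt
ELF3: atatgcaaatCACCTGgggccaggag
CD24: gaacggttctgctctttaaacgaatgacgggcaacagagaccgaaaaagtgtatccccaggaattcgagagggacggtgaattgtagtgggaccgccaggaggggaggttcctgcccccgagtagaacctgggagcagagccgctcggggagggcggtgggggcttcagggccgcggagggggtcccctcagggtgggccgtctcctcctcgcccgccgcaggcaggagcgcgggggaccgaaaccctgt

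SNAI1, SNAI2, ZEB1, ZEB2, TWIST1 and TWIST2 repress epithelial genes, and 4 of these 6 passed the read filter, with 3 falling, 1 rising and a median slope of -2.24. Counts of calls, here and in the lists below, stand against 23.5% of all genes tested rising and 22.3% falling. In the same lists, genes listed at 0 in a pure library lie away from the middle of their list, so bounds in place of fitted slopes leave each median as given. SNAI1 had 140, 126, 101, 41 and 9 reads, or 41.2 CPM in the 100:0 and 3.35 CPM in the 0:100 library, for a slope of -2.53 ± 0.40 (SE, adjusted p = 2.29e-04 by edgeR). ZEB1 went from 31 to 1 reads, for a slope of -2.70 ± 0.70 (SE, adjusted p = 0.00686 by edgeR). TWIST2 rose instead, from 0 to 55 reads, at least 23.1-fold with 0 reads taken as 3 (edgeR, adjusted p = 1.85e-04).

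Of 14 other epithelial transcription factors, 12 passed the read filter, 6 rose, 3 fell and the median slope was 0.82. FOXA1, a pioneer factor of endoderm, rose from 3 to 326 reads for a slope of 3.88 ± 0.53 (SE, adjusted p = 8.82e-05 by edgeR). Its relative FOXA2 had the steepest fall, from 150 to 30 reads for a slope of -1.86 ± 0.28 (SE, adjusted p = 1.56e-04 by edgeR). The ETS factor ELF5 had 0 reads in every library.

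Among 20 other membrane-anchored serine proteases, 16 did not pass the read filter, 7 of them with 0 reads in all libraries. Of the 4 that passed, 3 rose and 0 fell, with a median slope of 1.16. TMPRSS13, a type II protease, had 16, 49, 78, 89 and 105 reads, 8.28-fold apart at the ends (95% counting interval 4.87 to 15.02), for a slope of 2.73 ± 0.31 (SE, adjusted p = 2.16e-05 by edgeR). PRSS21, a GPI-anchored protease with the most reads of that list, rose from 50.1 to 117 CPM (edgeR, adjusted p = 1.64e-05). HPN, which encodes hepsin, was close to the threshold (edgeR, adjusted p = 0.0491).

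Of 9 other inhibitors, 5 passed the read filter, 1 rose and 4 fell, with a median slope of -0.84. SERPINA1, the alpha-1 antitrypsin gene, fell from 159 to 98.9 CPM and SERPINA5 from 81 to 18 reads, with slopes of -0.71 ± 0.12 and -1.51 ± 0.30 (SE, adjusted p = 4.09e-04 and 0.00139 by edgeR). SERPINE2, the protease nexin gene, rose from 0 to 18 reads, at least 7.57-fold with 0 reads taken as 3 (edgeR, adjusted p = 0.00355).

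Of 14 substrates of matriptase or prostasin and their receptors, 7 passed the read filter, 3 rose and 2 fell, and the median slope was 0.030. SCNN1A, the alpha subunit of the epithelial sodium channel that prostasin activates, had 101, 300, 394, 421 and 493 reads and a slope of 2.38 ± 0.22 (SE, adjusted p = 6.20e-06 by edgeR). The partner subunits SCNN1B and SCNN1G had at most 3 and 0 reads in any library. PLAU, the urokinase gene, had 412 and 396 CPM in the pure libraries with no detected slope (0.030 ± 0.13, SE, edgeR, adjusted p = 0.862), and MST1R, a receptor tyrosine kinase, fell from 107 to 42 reads (edgeR, adjusted p = 0.00921).

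All 15 EPCAM partners and cleavage genes passed the read filter, 5 rose, 4 fell, and the median slope was -0.11. CLDN7, which encodes claudin-7, had 681, 1244, 1498, 1356 and 1603 reads, or 201 to 596 CPM in order, for a slope of 1.54 ± 0.12 (SE, adjusted p = 3.45e-06 by edgeR), while EPCAM had no detected slope. TSPAN8, a tetraspanin, rose from 10 to 41 reads (edgeR, adjusted p = 0.00173), and APH1B, a gamma-secretase subunit, fell from 41 to 1 reads (edgeR, adjusted p = 0.00903). Of 13 recycling endosome genes around RAB25, 4 rose, 0 fell and the median slope was 0.058. Among all genes tested, 23.5% rose and 22.3% fell. RAB11B rose from 50.4 to 139 CPM for a slope of 1.38 ± 0.14 and EHD1 from 255 to 441 CPM for a slope of 0.78 ± 0.12 (SE, adjusted p = 1.10e-05 and 2.21e-04 by edgeR).

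**Figure D5:**
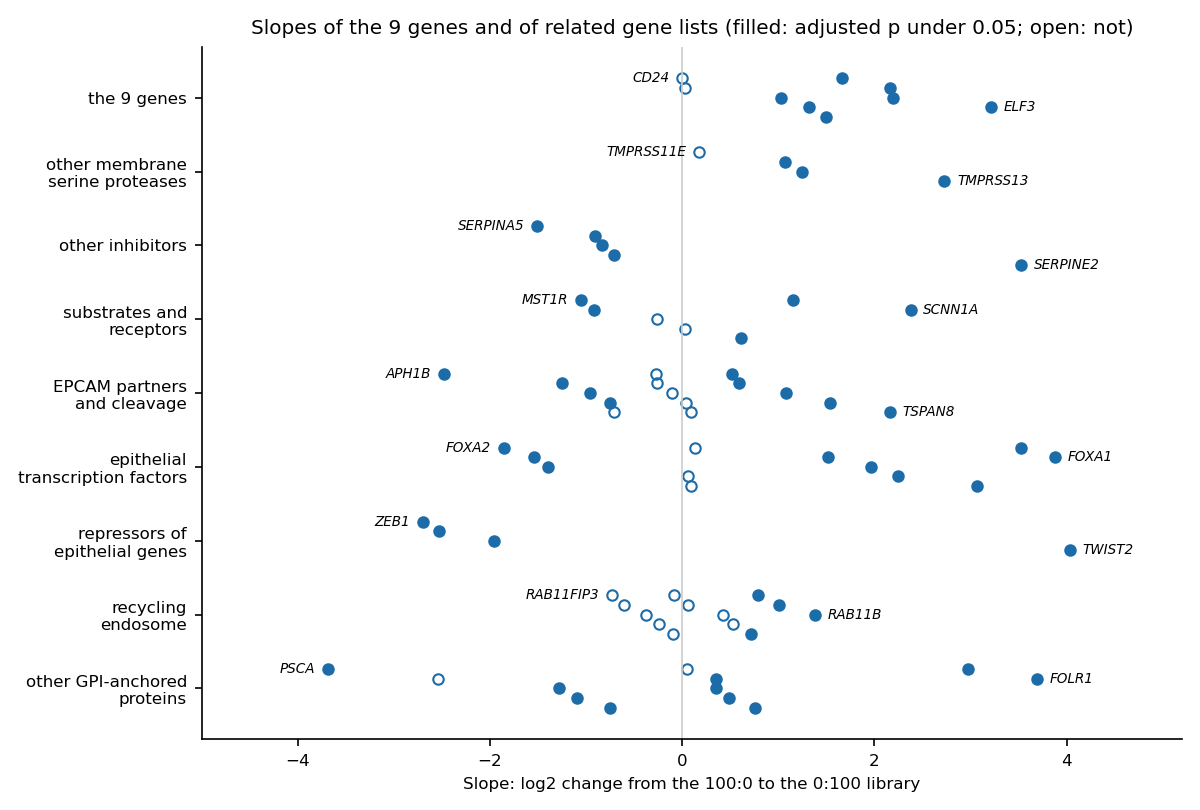
Slopes (horizontal axis, log2 change from the 100:0 to the 0:100 library) of the 9 genes and of the genes of each related list that passed the read filter (rows; vertical offsets only separate points). Filled points have an adjusted p under 0.05, open points do not, and the lowest and highest gene of each row is named. The 9 genes lie from 0.00028 (CD24) to 3.21 (ELF3).

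The genes with the most similar profile were sought among 5289 others with at least 500 reads (5290 for TMPRSS4, itself under that number). Likeness was the root mean square difference of log2(CPM + 0.5) over the 5 libraries, each gene centred on its mean. For ELF3 they were PIP4K2C (0.050) and OS9 (0.070), near each other on chromosome 12, at 57591174 to 57603418 and 57693841 to 57728342, and 4 genes lay within 0.1. For RAB25 they were ERCC1 (0.056) and POLR1D (0.064), with 8 genes within 0.1. ST14 was nearest to BBLN and BIN1, PRSS8 to ZNRD2 and MACROD1, TMPRSS4 to DHRS3 and ZNF581, SPINT1 to VEGFB and MGLL, and SPINT2 to DDR1 and LAMTOR1. EPCAM was nearest to NEDD8 and ISCU and CD24 to EEF2KMT and CDK16, with 593 and 491 genes within 0.1, as flat profiles are common. Among the 9, EPCAM and CD24 were the most alike (0.048), followed by PRSS8 and SPINT1 (0.13). With 5 libraries that share 2 RNAs, such likeness is a description only.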

How the data were processed

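For each library the authors deposited transcript identifiers, lengths and estimated counts of reads, without scaling. GRCh38, minimap2 2.24 and Salmon 1.9.0 are named in the submitters' processing notes, with no role stated; the annotation release is not given in the sources used here. Poly(A) RNA was used at 1 ng per mix with 16 PCR cycles, per the labels' protocols. No molecular identifiers were given, so intervals cover counting error only.

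Of the deposited estimated counts, 2 were not whole and were rounded, and 161 repeated identifiers were summed. GENCODE v44 matched 224076 of 227751 human transcripts, with 98.6% of human reads. Gene sums were tested with edgeR 4.0.16 (R 4.3.3) by the quasi-likelihood slope on the HCC827 mass fraction, with TMM scaling, a filter of 10 reads reached in 2 or more libraries, and Benjamini-Hochberg adjustment over all genes tested. Standard errors come from the slope and the square root of its F. Isoform usage used diffSpliceDGE, ratios between pure libraries exact conditional binomial intervals, and positions delta-method errors. On simulated data over 13174 genes with 200 changed, the slope test recovered 122 with 6 false calls. The simulation gave all genes the same fixed dispersion and changed far fewer genes than the 6175 called in the data. Its error rates therefore need not hold for the calls reported here.

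The genes named are the 9 genes, the genes past the threshold with the steepest slope each way and the gene with most reads of each list, the 2 nearest profiles, and overlapping genes. Overlapping genes with at most 3 reads in all are left out. A gene that the rule names is not reported here. SNAI2, ZEB2, TWIST1, ELF5, HPN, SCNN1B, SCNN1G, THY1, CD52 and markers are named outside that rule. The 9 genes and the lists were chosen with earlier results of these data known, and the ratios between genes and the promoter search were added after the values were seen. Alternatives included DESeq2 1.42.0 and limma-voom (limma 3.58.1).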

Additional observations from a re-analysis of the deposited data

How the results depend on the processing

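The 7 rising slopes kept their direction and their call in all 14 alternatives: DESeq2 size factors, library totals, no read filter, 10 reads in every library, DESeq2's Wald test, limma-voom, the HCC827 share estimated from the reads, protein-coding transcripts only, the length trend removed (chosen after seeing the data) and each of 5 fits without 1 library. ELF3 ranged most, from 2.28 without the 100:0 library to 3.88 without the 0:100 library, and SPINT2 least far from 0, from 0.62 under library totals to 1.16. EPCAM reversed sign under library totals (-0.38), no read filter (-0.0045), 10 reads in every library (-0.031) and the length trend removed (-0.17), and ran from -0.013 to 0.092 over the fits without 1 library. CD24 reversed under library totals (-0.41), no read filter (-0.028), 10 reads in every library (-0.054), protein-coding transcripts only (-0.010) and the length trend removed (-0.087), and ran from -0.034 to 0.13 without 1 library. Except under library totals, neither passed the threshold in any of them. Library totals moved the mean positions of the 75:25 and 50:50 libraries to 29.7% and 50.4%, by the change of scale itself. Called transcripts numbered 13 to 21 over the 10 alternatives run for them (limma-voom, the estimated share, protein-coding transcripts only and the length trend were not), with 13 under 10 reads in every library, where fewer are tested, and 14 without the 0:100 library. Over all genes, 6175 passed the slope threshold and 4067 without the 0:100 library. No gene of the 7 changed isoform usage in any alternative run. Library totals left 5 genes at least 2-fold apart. No paired analysis was possible because each ratio had 1 library. Counts as low as 32 reads (TMPRSS4) limit the precision.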

Other observations

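Other GPI-anchored surface proteins, the class to which CD24 and prostasin belong, moved in both directions along the series, as all genes tested did (23.5% rose and 22.3% fell). Of 15 listed, 12 passed the read filter, 6 rose, 4 fell and the median slope was 0.20. FOLR1, the folate receptor alpha gene, had 0, 88, 135, 148 and 228 reads, at least 95.9-fold higher in the 0:100 library with 0 reads taken as 3 (edgeR quasi-likelihood test, adjusted p = 2.30e-04). BST2, the tetherin gene and the list's most abundant by reads, fell from 488 to 279 CPM, for a slope of -0.76 ± 0.12 (SE, adjusted p = 1.91e-04 by edgeR). PSCA went from 17 to 2 reads, for a slope of -3.69 ± 0.91 (SE, adjusted p = 0.00542 by edgeR). THY1 and CD52 had 0 reads in every library.

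FOXA1 departed from a straight line: its TMM-scaled levels were 0.884, 26.6, 26.9, 41.9 and 121 CPM, so the 75:25 and 50:50 libraries were nearly equal and the 0:100 library stood far above the 25:75 library. It was noticed after the values were seen, and no cause was tested.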
